A study of Mus musculus with 23 samples.

Results

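The data described here are the levels of 10 circadian clock genes in hippocampus RNA from female mice. The genes are Per1, Per2, Per3, Dbp, Nr1d1, Nr1d2, Arntl (also called Bmal1), Clock, Ciart and Bhlhe41. They were taken by symbol from a table of 45706 genes, and all 10 were found. All 10 were also among the 15828 genes with enough counts to be tested. One library was sequenced from each of 12 wild-type samples (Ins2+/+, WT) and 11 knockout samples (Ins2-/-, KO), and the series title places them in a study of brain insulin production and memory. Ins2 is an insulin gene. The genotype of the other insulin gene, Ins1, and the age of the mice are not given in the sources used here. The labels name each library by genotype and a number from 1 to 24; no library has the number 7. What this number counts, the time of dissection and the lighting schedule are not stated. The labels do not say that each library came from a separate animal, so p-values measure the spread between these samples.

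The circadian clock is a feedback loop of transcription that runs in most cells, hippocampal cells included. CLOCK and BMAL1 (the product of Arntl) pair up and activate genes through E-box sequences, among them Per1, Per2, Per3, Nr1d1, Nr1d2, Dbp, Ciart and Bhlhe41. PER proteins return to repress CLOCK and BMAL1, while the nuclear receptors encoded by Nr1d1 and Nr1d2 (REV-ERBα and REV-ERBβ) repress Arntl and Clock. In most tissues the mRNA of Dbp and Nr1d1 therefore peaks in a different part of the day from that of Arntl.

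Library totals ranged from 13792274 to 22953261 counts, and the log2 level of Dbp had r = -0.05 with the total over the 23 libraries. Ins2 had 26 counts over 7 WT libraries, 18 of them in 1 library, and 0 in the KO libraries. The 14 marker genes of the dentate gyrus, CA1 and CA3 had more than 3 counts in every library except KO 8, where the dentate gyrus marker Lct had 2 and the CA3 marker Iyd 3. KO 8 stood apart: its 6 dentate gyrus markers summed to 83.7 CPM (counts scaled to a common library total) against 315 to 668 in the other libraries. Its CA1 and CA3 markers, 143 and 146 CPM, were below those of every other library, and its 12 hypothalamus markers summed to 2110 CPM against 5.28 to 66.5. A list of 6 markers of the suprachiasmatic nucleus, the hypothalamic seat of the master clock, summed to 76.9 CPM in KO 8 and to between 12 and 31.4 CPM elsewhere; 2 of its genes had a median under 0.1 CPM. Choroid plexus markers summed to 3160 to 20000 CPM in WT 14, WT 17, KO 2, KO 6 and KO 12 and to 31.6 to 96.4 CPM in the others. The main tests over all genes were repeated without KO 8 and without the 5 libraries rich in choroid plexus RNA. Correlations were repeated without KO 8, given where that matters, but not without those 5 libraries.

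The 10 genes were expressed at moderate levels. Compared per kilobase of exon, which makes levels of different genes comparable, Nr1d2 was highest at 19.3 ± 2.09 CPM per kb (SD, n = 23), followed by Nr1d1 at 18.8 ± 2.99, Per1 at 16.4 ± 1.46 and Dbp at 14.2 ± 4.59 CPM per kb. A middle group held Per2 at 8.66 ± 1.73, Clock at 7.58 ± 0.726, Bhlhe41 at 6.62 ± 0.732 and Per3 at 6.19 ± 0.887 CPM per kb. Ciart at 3.34 ± 0.909 and Arntl at 3.33 ± 0.505 CPM per kb were lowest. Only 3 steps in this order, from Dbp to Per2, from Clock to Bhlhe41 and from Per3 to Ciart, were wider than the SD of both neighbours. In whole tissue, fewer cells that express a gene and less of its RNA per cell cannot be told apart.

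The members differed in how much they varied between libraries of one genotype. Dbp, a transcription factor of the PAR bZIP family that carries the rhythm to other genes, varied most. The SD of its log2 CPM within a genotype was 0.438, above that of 81.1% of all tested genes and of 94.4% of the 2635 genes nearest it in level. Ciart (CHRONO, a repressor of CLOCK and BMAL1) followed at 0.380 and Per2 at 0.307. Nr1d1 at 0.230, Per3 at 0.214 and Arntl at 0.206 lay near the median of all tested genes, 0.211. Bhlhe41 (DEC2, another repressor) at 0.157, Nr1d2 at 0.144, Clock at 0.136 and Per1 at 0.131 lay below it. The coefficient of variation expected from counting alone was 3.70% for Dbp and 8.79% for Ciart, the highest among the members. Their biological coefficients of variation, estimated by edgeR, were 29.3% and 26.0%.

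**Figure D1:**
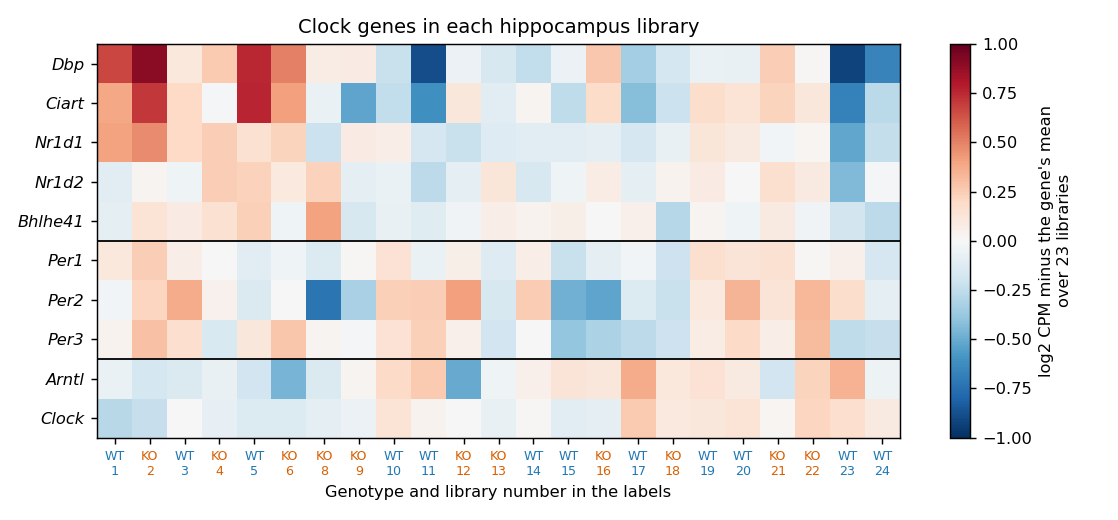
Each of the 10 clock genes (lines) in each of the 23 libraries (columns, in order of library number, genotype marked by colour). Colour is the log2 CPM minus the gene's mean over all libraries. Dbp and Ciart were high in WT 1, KO 2, WT 5 and KO 6 and low in WT 11 and WT 23, where Arntl was high.

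Dbp (chr7:45705088-45710203, plus strand, GRCm38) ranged from 21.3 CPM in WT 23 to 75.7 CPM in KO 2, a 3.55-fold range. Its highest libraries were KO 2 at 75.7, WT 5 at 68.5, WT 1 at 64.4 and KO 6 at 57.6 CPM, and its lowest were WT 24 at 25.4, WT 11 at 21.9 and WT 23 at 21.3 CPM. The 4 highest all carried numbers up to 6, and both genotypes were among them. The 3 lowest were all WT. Dbp shares 539 bases with Sphk2 on the opposite strand, and whether the counting used strand is not given in the sources used here; Sphk2 itself had r = 0.21 with Dbp over the libraries.

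Ciart (chr3:95878503-95882251, minus strand) had 78 to 236 counts per library. It ranged from 4.52 CPM in WT 23 to 12.5 CPM in WT 5, a 2.76-fold range, and its other high libraries were KO 2 at 12, KO 6 at 9.72 and WT 1 at 9.56 CPM. These were the same 4 libraries that were highest for Dbp. Nr1d1 (chr11:98767932-98775333, minus strand) ranged from 39.9 CPM in WT 23 to 79.1 CPM in KO 2. Its next highest library was WT 1 at 75.6 CPM. Nr1d1 shares 263 bases with Thra on the opposite strand, which had r = 0.30 with Nr1d1 and r = 0.02 with Dbp. Nr1d2 (chr14:18204054-18239127, minus strand) ranged from 76.6 CPM in WT 23 to 123 CPM in KO 4. WT 23 was thus lowest for Dbp, Ciart, Nr1d1 and Nr1d2. Bhlhe41 (chr6:145858243-145865558, minus strand) ranged from 36.2 CPM in KO 18 to 58.4 CPM in KO 8, the library with the hypothalamic markers.

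Arntl and Clock, the activators, were highest in other libraries. Arntl (chr7:113207465-113314126, plus strand) ranged from 17.5 CPM in KO 12 to 32.0 CPM in WT 17, with WT 23 next at 31.5 and WT 11 at 29.8 CPM. Clock (chr5:76209868-76304792, minus strand) ranged from 85.3 CPM in WT 1 and 88.5 CPM in KO 2 to 124 CPM in WT 17. The libraries that were lowest for Clock were thus among the highest for Dbp.

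The Period genes form the negative limb of the loop. Per1 (chr11:69095217-69109960, plus strand), which also responds to light and to neuronal activity, ranged only from 78.8 CPM in WT 15 to 109 CPM in KO 2. Per2 (chr1:91415982-91459324, minus strand) ranged from 29.8 CPM in KO 8 to 65.9 CPM in KO 12, with KO 16 at 34.3 and WT 15 at 35.5 CPM next to the low end. Per3 (chr4:151003652-151044665, minus strand) ranged from 45.0 CPM in WT 15 and 47.2 CPM in KO 16 to 73.5 CPM in KO 22, with KO 2 at 72.2 and KO 6 at 71.3 CPM next to the high end. WT 15 and KO 16 were thus low for both Per2 and Per3. Their Dbp levels, 39.0 and 49.0 CPM, were above the medians of their genotypes, 36.6 CPM in WT and 42.8 CPM in KO. For Dbp, KO 16 was the next highest library after KO 2, WT 5, WT 1 and KO 6. The 3 libraries lowest for Per2 were also the 3 lowest for the summed CA3 markers, KO 8 at 146, KO 16 at 610 and WT 15 at 613 CPM, and KO 16 was the lowest after KO 8 for the dentate gyrus markers, at 315 CPM. Over the 23 libraries Per2 had r = 0.65 with the mean log2 CPM of the dentate gyrus list (0.54 without KO 8) and r = 0.61 with that of the CA3 list (0.38 without KO 8). Per3 had r = 0.21 and 0.22 with the same lists, and 0.66 and 0.49 without KO 8, and Per1 had 0.33 and 0.30, and 0.32 and 0.19 without KO 8. Other lists had correlations of similar size. With the oligodendrocyte list Per1, Per2 and Per3 had r = -0.53, -0.45 and -0.56 (-0.59, -0.64 and -0.57 without KO 8), and with the astrocyte list -0.34, -0.41 and -0.53 (-0.33, -0.44 and -0.54 without KO 8). Per2 also had r = -0.64 with the suprachiasmatic, -0.58 with the hypothalamus and 0.60 with the glucocorticoid list (-0.48, -0.46 and 0.48 without KO 8). With the immediate early and microglia lists its r was -0.23 and -0.06 (-0.51 and -0.47 without KO 8). Per3 had r = -0.20 with the suprachiasmatic list (-0.57 without KO 8). These are descriptions made after the values were seen. The part of regions, cell types, neuronal activity or hormone response in the Period pattern was not tested.

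Because several members moved together, the 250 bases before each start were searched, on both strands, for the sequences through which the clock is known to act. RefSeq's promoter table (GRCm38.p6) held an entry for 9 of the 10 genes; Per2 has none. An E-box, CACGTG, occurred in 6.02% of all 32851 promoters in that table, and among the members in those of Ciart, Bhlhe41 and Per1 (1 of its promoters). The E-box variant CACGTT occurred in 3.85% of all promoters and in that of Nr1d1. A D-box, TTATGTAA or TTACGTAA, the sequence bound by DBP, occurred in 0.931% of all promoters and at 2 positions in that of Per3. The ROR element core (TAGGTCA or TGGGTCA, 5.38% of all promoters) and the cAMP response element TGACGTCA (1.55%) were in none of the 9, and Dbp, Nr1d2, Arntl and Clock held none of the 5 motifs in this window. The stretches around the matches are printed to show where the letters lie, 5′ to 3′ on the gene's strand, with the matches in capitals. Ciart, the gene closest to Dbp over these libraries, had 3 E-boxes, starting at -116, -58 and -44 from the annotated start. The Per3 D-boxes started at -205 and -158, the Per1 E-box at -166, the Bhlhe41 E-box at -153 and the Nr1d1 variant, which reads AACGTG on this strand, at -28. The starts are those of RefSeq and can differ from the gene positions given above. The window of Dbp, chr7:45704997-45705246, lies mostly inside the printed gene, and the Per1 E-box lies inside the printed Per1 gene. A stretch of bases after the RefSeq start of Nr1d1 was not found in its GENCODE transcripts. A match is a description of letters, not evidence of a site in use.
Ciart, chr3:95882259-95882384: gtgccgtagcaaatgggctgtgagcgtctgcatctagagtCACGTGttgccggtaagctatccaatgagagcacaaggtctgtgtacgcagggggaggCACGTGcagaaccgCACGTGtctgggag
Nr1d1, chr11:98775392-98775445: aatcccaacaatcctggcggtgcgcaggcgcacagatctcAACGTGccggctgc
Bhlhe41, chr6:145865560-145865613: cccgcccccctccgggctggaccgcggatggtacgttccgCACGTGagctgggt
Per1, chr11:69098743-69098796: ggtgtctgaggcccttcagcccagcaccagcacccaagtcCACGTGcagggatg
Per3, chr4:151044808-151044910: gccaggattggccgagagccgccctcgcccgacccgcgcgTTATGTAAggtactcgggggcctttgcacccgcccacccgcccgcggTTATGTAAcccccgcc

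The first question was which genes varied with Dbp from library to library. Ciart and Nr1d1 rose with it, and of all 15827 genes tested beside Dbp they had the smallest p-values. Ciart rose by 0.77 log2 units per log2 unit of Dbp (SE 0.0947, Benjamini-Hochberg adjusted p = 0.000529, edgeR's quasi-likelihood test with genotype as a term). Nr1d1 rose by 0.44 log2 units (SE 0.0647, adjusted p = 0.00536, same test). Over all genes, 12 passed an adjusted p of 0.05 (0.0758%), 4 rising with Dbp (0.0253%) and 8 falling (0.0505%), and 2 of the 4 that rose were members. At an unadjusted p below 0.05 stood 6 of the 9 members, against 11.4% of all genes. Dbp was used as the yardstick because its mRNA swings widely over the day in most tissues.

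Clock and Arntl had negative slopes on Dbp that did not pass the adjusted threshold. The slope of Clock was -0.21 (SE 0.0536, adjusted p = 0.111, edgeR) and that of Arntl -0.24 (SE 0.0881, adjusted p = 0.263). Nr1d2 had a slope of 0.18 (SE 0.0620, adjusted p = 0.240) and Bhlhe41 one of 0.17 (SE 0.0709, adjusted p = 0.360). The Period genes had slopes of 0.09 for Per1, 0.16 for Per3 and -0.04 for Per2, with adjusted p-values of 0.647, 0.589 and 0.965. The call for Ciart was kept in every alternative tried except the one with Nr1d1 as the yardstick, where its adjusted p was 0.0733. The call for Nr1d1 was lost with library number as a covariate (slope 0.36, adjusted p = 0.693), without the 5 libraries rich in choroid plexus RNA (0.38, adjusted p = 0.135) and without WT 1 (0.42, adjusted p = 0.0620). For Clock the slope passed the threshold with no genotype term (-0.22, adjusted p = 0.0435) and with choroid plexus and hypothalamus levels as covariates (-0.21, adjusted p = 0.0359).

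The same relations as correlations of log2 CPM over the 23 libraries, 9 in all, are given with two-sided permutation tests of 100000 resamples, which cannot give a p below 1e-05. Ciart had r = 0.87 with Dbp (p = 1e-05; Spearman's rho = 0.81, p = 1e-05), and 0.92 within WT and 0.78 within KO. Nr1d1 had r = 0.80 (p = 1e-05; rho = 0.74, p = 0.00013), and 0.85 within WT and 0.82 within KO. Clock had r = -0.71 (p = 0.00016; rho = -0.77, p = 6e-05), and -0.69 within WT and -0.68 within KO. These 3 relations were of similar size in both genotypes. Without KO 2 and WT 23, the libraries farthest from the median of Dbp, they were 0.80 for Ciart, 0.68 for Nr1d1 and -0.64 for Clock.

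For Nr1d2, Arntl and Bhlhe41 the pooled r was closer to 0, and r was larger in size within WT than within KO. Nr1d2 had r = 0.63 (p = 0.00156; rho = 0.54, p = 0.00932), with 0.71 within WT and 0.10 within KO. Arntl had r = -0.59 (p = 0.00324; rho = -0.66, p = 0.00086), with -0.70 within WT and -0.30 within KO. Bhlhe41 had r = 0.50 (p = 0.0163; rho = 0.51, p = 0.0134), with 0.66 within WT and 0.30 within KO. Without the same pair of libraries r was 0.56 for Nr1d2, -0.51 for Arntl and 0.41 for Bhlhe41, the last with p = 0.0675. Without KO 8 alone r was 0.65 for Nr1d2, -0.59 for Arntl and 0.58 for Bhlhe41. Whether slopes on Dbp differed between genotypes was tested directly, a test added after these values were seen. None of the 15827 genes passed (0.00%, edgeR's interaction term; at an unadjusted p below 0.05 the slope was higher in KO for 101 genes and lower for 265), and none of the 9 members was below 0.05 unadjusted. For Nr1d2 the slope in KO minus that in WT was -0.20 (95% interval -0.49 to 0.099), so the test shows no difference and its interval is wide. For Arntl this difference was 0.02 (-0.41 to 0.45) and for Bhlhe41 -0.01 (-0.37 to 0.34), so their estimated slopes were nearly equal in both genotypes.

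Per1, Per2 and Per3 had r = 0.24 (p = 0.269; rho = 0.16, p = 0.457), -0.13 (p = 0.544; rho = -0.18, p = 0.404) and 0.34 (p = 0.114; rho = 0.31, p = 0.154) with Dbp. Within WT these were 0.11, -0.24 and 0.27, and within KO 0.67, 0.19 and 0.49. Without KO 2 and WT 23 they were 0.15, -0.18 and 0.14. Over all libraries none of the 3 was below a p of 0.05, and within KO Per1 was (p = 0.0251). Single libraries moved these values: r for Per3 was 0.50 without WT 11 (permutation p = 0.0162), and r for Per1 was 0.07 without KO 2. The choice of yardstick mattered here. With Nr1d1 in place of Dbp, Per3 had a slope of 0.49 (edgeR, adjusted p = 0.202) and Per1 one of 0.26 (adjusted p = 0.285), both below 0.05 unadjusted (p = 0.00861 and 0.0309). Bhlhe41 had a slope of 0.13 on Nr1d1 (adjusted p = 0.679, unadjusted p = 0.393). Without KO 8, the library with the hypothalamic markers, the slope of Bhlhe41 was 0.24 (edgeR, adjusted p = 0.348, unadjusted p = 0.0581), that of Per3 0.51 (adjusted p = 0.165) and that of Per1 0.24 (adjusted p = 0.327, unadjusted p = 0.0498).

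**Figure D2:**
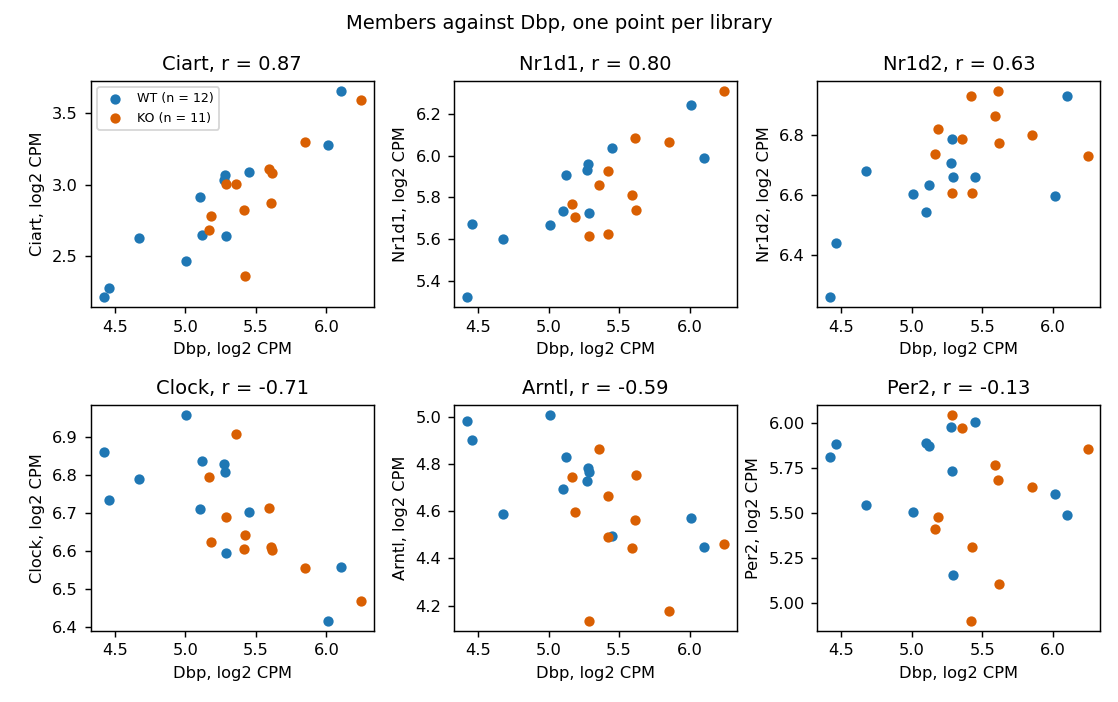
Log2 CPM of 6 members against that of Dbp, one point per library, WT in blue (n = 12) and KO in orange (n = 11), with Pearson's r over all libraries. Ciart (r = 0.87) and Nr1d1 (r = 0.80) climb with Dbp in both genotypes, Clock (r = -0.71) and Arntl (r = -0.59) descend, and the points of Per2 (r = -0.13) are scattered.

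For the 45 pairs of members, the genes were grouped, after the values were seen, into activators, Period genes and the other 5 CLOCK and BMAL1 targets. Pairs share their libraries, so r is given as a description. All 10 pairs among the other targets Dbp, Nr1d1, Nr1d2, Ciart and Bhlhe41 were positive, from 0.22 to 0.87. Arntl and Clock had r = 0.61 with each other, and all 10 of their pairs with those 5 genes were negative, from -0.71 to -0.31. Both ranges were wider within KO. There the target pairs ran from 0.01 to 0.82, against 0.43 to 0.92 within WT, and the pairs of targets with activators from -0.68 to 0.11, against -0.83 to -0.26 within WT. The pair above 0 within KO was Nr1d2 with Arntl. Per1, Per2 and Per3 had r = 0.56 to 0.67 among themselves, and 0.56 to 0.69 once genotype and library number were taken out. Their pairs with the 5 targets ran from -0.34 to 0.53 and with the activators from -0.33 to 0.33. The closest pair across these sets was Per3 with Nr1d1 (r = 0.53, and 0.55 without KO 8). Bhlhe41 with Nr1d1 had r = 0.22, and 0.42 without KO 8. With genotype and library number taken out, pairs among the 5 targets ran from -0.11 to 0.86 and their pairs with the activators from -0.51 to -0.03. Without KO 8, and with nothing taken out, these 2 ranges were 0.42 to 0.87 and -0.72 to -0.28.

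**Figure D3:**
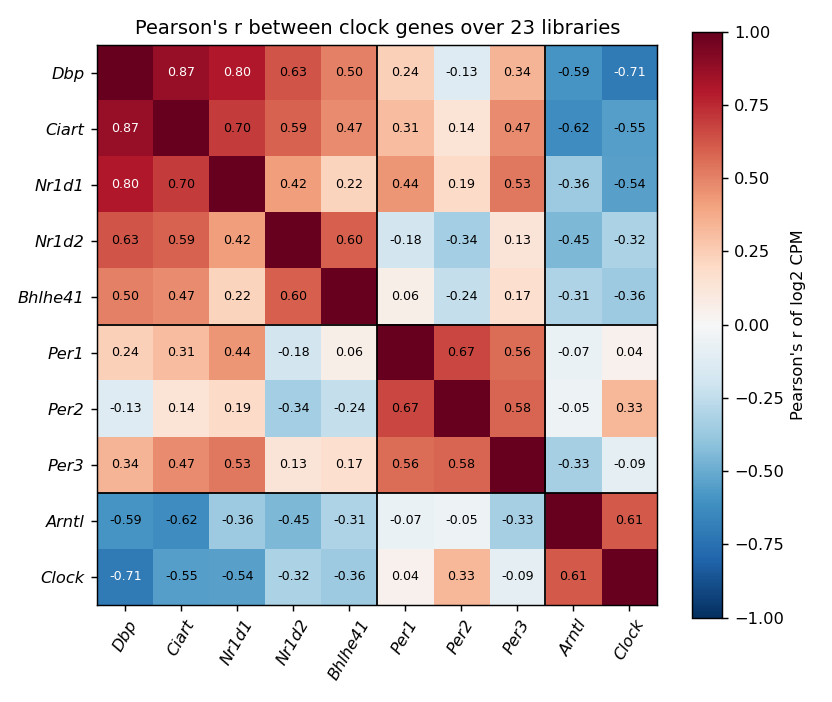
Pearson's r of log2 CPM over the 23 libraries for every pair of the 10 genes, with lines between the 5 other CLOCK and BMAL1 targets, Period genes and activators. The first 5 genes are positive with each other (0.22 to 0.87) and negative with Arntl and Clock (-0.71 to -0.31), and the 3 Period genes are positive with each other (0.56 to 0.67).

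Outside the list, the genes whose log2 CPM was most like that of Dbp over the 23 libraries were Fance (r = 0.82), a Fanconi anaemia DNA repair gene, Dexi (0.80), Mrpl28 (0.80), a mitochondrial ribosome gene, Wnt9a (0.78) and Mvk (0.76), which encodes mevalonate kinase of sterol synthesis. Among all tested genes Ciart had rank 1 and Nr1d1 rank 3 in this order. Wnt9a passed the test with a slope of 0.78 (SE 0.132, adjusted p = 0.0218, edgeR) and levels of 2.64 to 8.93 CPM in WT and 3.14 to 6.21 CPM in KO. The most opposite genes were Cdkn1b (r = -0.85), Caprin1 (-0.83), Hspa4 (-0.83), Washc4 (-0.82) and Zfp397 (-0.82). Cdkn1b, the cell cycle inhibitor p27, fell by 0.23 log2 units per log2 unit of Dbp (SE 0.0359, adjusted p = 0.00894, edgeR). Fance, Dexi, Mvk, Caprin1 and Hspa4 did not pass the same test (adjusted p = 0.0535 to 0.111). Mrpl28 (slope 0.28, adjusted p = 0.0399), Washc4 (-0.28, 0.0262) and Zfp397 (-0.26, 0.0481) passed it, but none of them did without WT 1. The Cdkn1b and Wnt9a calls were both lost with library number as a covariate (adjusted p = 0.487 and 0.277), without the 5 libraries rich in choroid plexus RNA (0.0998 and 0.0601) and without WT 1 (0.0783 and 0.062). That of Wnt9a was also lost when WT 5, WT 11, WT 23 or WT 24 was left out alone (0.0547 to 0.165). The slopes kept their signs in these fits. From this end Clock had rank 44 and Arntl rank 234 among all tested genes.

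Other genes of the clock, 23 in all and all tested, stood near the background. None passed the adjusted threshold on Dbp (edgeR), and 3 of 23 had an unadjusted p below 0.05, a share of 13% against 11.4% of all genes. Nfil3, a repressor that binds the same D-box sequences as DBP, came closest with a slope of -0.34 (SE 0.0702, adjusted p = 0.0535). Cry2, a partner of the PER proteins, had a slope of 0.14 (SE 0.0642, adjusted p = 0.401), and Fbxw11, part of a ubiquitin ligase for PER proteins, one of -0.11 (SE 0.0467, adjusted p = 0.362). The DBP relatives Tef and Hlf had r = -0.01 and -0.10 with Dbp, and Cry1 had r = -0.06. The median slope of these 23 genes was -0.042, against -0.008 over all genes.

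Signals other than the clock that are known to move some of these genes were read beside Dbp. Immediate early genes, which neuronal activity induces, had positive slopes in 11 of 12 cases, against 7543 of 15827 over all genes; none passed the adjusted threshold (edgeR), and 4 had an unadjusted p below 0.05, of which Npas4 had a slope of 0.46 (SE 0.165, adjusted p = 0.259). Of 10 glucocorticoid-responsive genes 9 had negative slopes, against 8284 of 15827 over all genes, 2 had an unadjusted p below 0.05, and 1 passed: Cdkn1a, the cell cycle inhibitor p21, fell by 0.99 log2 units (SE 0.171, adjusted p = 0.0218). The Cdkn1a call was lost with library number as a covariate (adjusted p = 0.277), without the 5 libraries rich in choroid plexus RNA (0.0601), and when WT 1, WT 5, WT 11, KO 13 or WT 24 was left out alone (0.0531 to 0.131), with slopes of -1.09 to -0.92 in these fits. Pdk4 had a slope of -0.55 (SE 0.166, adjusted p = 0.177). Of 8 temperature-responsive genes none passed and 3 had an unadjusted p below 0.05: Hsph1 with a slope of -0.20 (SE 0.0465, adjusted p = 0.103), Rbm3 with 0.32 (SE 0.128, adjusted p = 0.339) and Cirbp with 0.22 (SE 0.103, adjusted p = 0.415). The shares below 0.05 unadjusted were 33.3% of the immediate early, 20.0% of the glucocorticoid and 37.5% of the temperature list, against 11.4% of all genes. The summed immediate early genes ranged from 352 to 854 CPM in WT and from 391 to 870 CPM in KO, and the mean log2 CPM of the list had r = 0.29 with Dbp. The glucocorticoid list ranged from 370 to 661 CPM in WT and 298 to 716 CPM in KO (r = -0.33 with Dbp). The temperature list ranged from 1800 to 2770 CPM in WT and 1240 to 2640 CPM in KO (r = -0.08 with Dbp). The part of these signals in the pattern of Dbp was not tested. The mean log2 CPM of the choroid plexus list had r = 0.14 with Dbp, that of the hypothalamus list 0.05, that of the suprachiasmatic list 0.04 and that of the dentate gyrus list -0.11. For the CA1, CA3, microglia, astrocyte, oligodendrocyte and endothelium lists r lay between -0.26 and 0.08.

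The second question was whether the members followed the library number. Higher numbers went with less Dbp and Nr1d1 and more Clock, but with edgeR's test over all genes, genotype included, no member passed the adjusted threshold; 1 gene of 15828 did (Far1, 0.00632%). At an unadjusted p below 0.05, 2 of the 10 members had a positive slope, as did 7.04% of all genes, and 4 had a negative slope, as did 3.94% of all genes. Dbp had a slope of -0.0401 log2 units per number (SE 0.0093, adjusted p = 0.122), which amounts to -0.92 from number 1 to 24. Nr1d1 had a slope of -0.0212 (SE 0.00496, adjusted p = 0.125), or -0.49 over the range, and Clock one of 0.0140 (SE 0.00294, adjusted p = 0.118), or 0.32. Arntl changed by 0.33 over the fitted range (adjusted p = 0.307), Ciart by -0.56 (adjusted p = 0.341) and Bhlhe41 by -0.21 (adjusted p = 0.442). DESeq2 on the same counts passed 127 genes (1.35% of those with an adjusted p), and Dbp (adjusted p = 0.0130), Nr1d1 (0.0140) and Clock (0.00385) were among them. Whether these 3 members follow the number thus depends on the tool, while their slopes had the same sign and similar size with both.

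**Figure D4:**
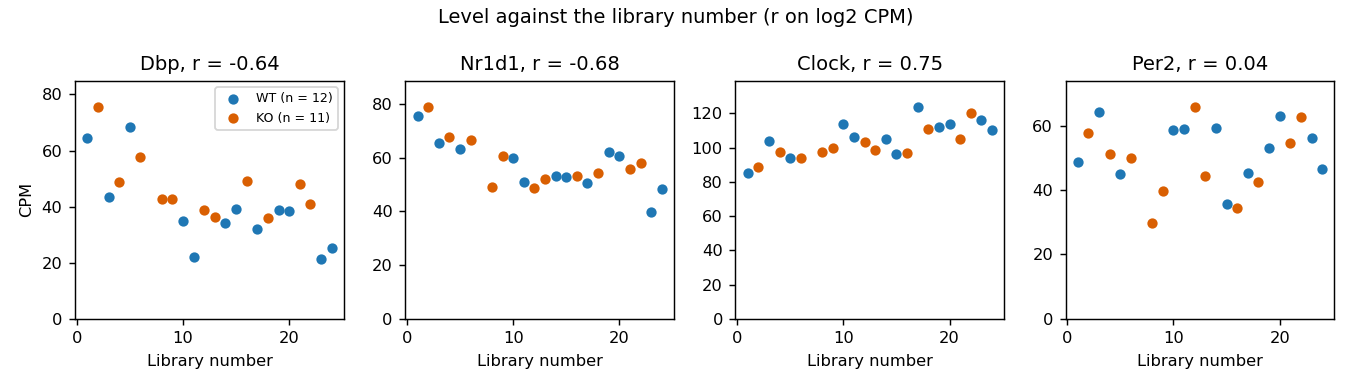
CPM of Dbp, Nr1d1, Clock and Per2 against the library number in the labels, WT in blue (n = 12) and KO in orange (n = 11), with axes from 0 and r taken on log2 CPM. Dbp (r = -0.64) and Nr1d1 (r = -0.68) are highest at the lowest numbers, Clock (r = 0.75) is lowest there, and Per2 (r = 0.04) is scattered.

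As correlations with the number, 10 in all, Clock had r = 0.75 (two-sided permutation test, p = 7e-05; rho = 0.72, p = 0.00021), Nr1d1 r = -0.68 (p = 0.00026; rho = -0.60, p = 0.00291) and Dbp r = -0.64 (p = 0.00102; rho = -0.62, p = 0.00194). Within WT these were 0.70, -0.74 and -0.70, and within KO 0.83, -0.57 and -0.58. Within KO, Dbp (p = 0.0602) and Nr1d1 (p = 0.0638) missed a p of 0.05. Without WT 1 and KO 2, the libraries farthest from the middle of the numbers, r was 0.65 for Clock, -0.55 for Nr1d1 and -0.51 for Dbp. The relation thus did not rest on these libraries, though it was smaller without them.

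Arntl had r = 0.49 with the number (p = 0.0175; rho = 0.50, p = 0.0151), 0.54 within WT and 0.46 within KO, and 0.47 without WT 1 and KO 2. Ciart had r = -0.44 (p = 0.0330; rho = -0.40, p = 0.0612), -0.56 within WT and -0.22 within KO, and -0.29 without WT 1 and KO 2, where it no longer held (p = 0.204). It also missed a p of 0.05 when WT 1, KO 2, WT 5, KO 6, WT 23 or WT 24 was left out alone, with r from -0.42 to -0.36. Bhlhe41 had r = -0.43 (p = 0.0397; rho = -0.40, p = 0.0623), -0.48 within WT and -0.38 within KO, and -0.49 without WT 1 and KO 2. It missed a p of 0.05 in 7 of 23 fits that left out a single library (KO 2, WT 3, KO 4, WT 5, KO 18, WT 23 or WT 24), with r = -0.35 (p = 0.114) without WT 24. Of these 3, none was below a p of 0.05 within a single genotype. Per3 had r = -0.35 (p = 0.103; rho = -0.31, p = 0.152), Nr1d2 r = -0.22 (p = 0.308; rho = -0.09, p = 0.670), Per1 r = -0.15 (p = 0.498; rho = -0.11, p = 0.605) and Per2 r = 0.04 (p = 0.838; rho = 0.04, p = 0.844). Within WT these 4 were -0.50, -0.27, -0.12 and -0.06, and within KO -0.16, -0.06, -0.22 and 0.09. Without WT 1 and KO 2 they were -0.28, -0.30, 0.08 and 0.10. Per3 had r = -0.49 (p = 0.0215) without KO 22 alone. Of the 23 other clock genes none passed on the number (edgeR) and 2, Nampt and Nfil3, had an unadjusted p below 0.05. Both slopes were positive, a share of 8.70% against 7.04% of all genes in that direction, and none of the 23 had a negative slope at that level, against 3.94% of all genes.

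The comparison of the design was KO against WT. No member passed the test, and the levels of the genotypes overlapped for every member. Over all genes, 2 of 15828 passed (0.0126%, edgeR's quasi-likelihood test), and 0 of the 10 members, also with DESeq2 and with limma voom. At an unadjusted p below 0.05 stood 2 members, Nr1d2 and Arntl, against 5.74% of all genes. Without KO 6, WT 11, KO 12, WT 17 or WT 23 only Nr1d2 did, and Dbp joined them without WT 1 or WT 5 and with limma voom (log2 fold change 0.36, unadjusted p = 0.0453, adjusted p = 0.276). The numbers were spread over both genotypes, with a mean of 13.5 in WT and 11.9 in KO (r = -0.11 between number and genotype).

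Nr1d2 had a lowest, median and highest level of 76.6, 100.2 and 122 CPM in WT and 97.3, 110.4 and 123 CPM in KO. Its means were 99.3 ± 11.3 CPM (SD, n = 12) and 110.3 ± 8.49 CPM (SD, n = 11), a log2 fold change of 0.15 (SE 0.0589, adjusted p = 0.781, edgeR). The lowest WT libraries lay below every KO library, and the upper ends lay within 2 CPM of each other. Arntl had a lowest, median and highest level of 21.7, 26.7 and 32.0 CPM in WT and 17.5, 23.5 and 29.0 CPM in KO. Its means were 26.7 ± 3.38 CPM in WT and 23.4 ± 3.59 CPM in KO (SD, n = 12 and 11), a log2 fold change of -0.19 (SE 0.0831, adjusted p = 0.781, edgeR). KO 12 and KO 6, lowest of all for Arntl, are both among the libraries rich in choroid plexus RNA. So is WT 17, highest of all for Arntl at 32.0 CPM, with WT 14 at 25.7 and KO 2 at 21.9 CPM. Without those 5 libraries the log2 fold change of Arntl was -0.081 and Nr1d2 alone had an unadjusted p below 0.05. With Dbp as a covariate neither did.

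Dbp had a lowest, median and highest level of 21.3, 36.6 and 68.5 CPM in WT and 35.8, 42.8 and 75.7 CPM in KO. Its means were 38.5 ± 14.8 CPM in WT and 47.0 ± 11.5 CPM in KO (SD, n = 12 and 11), a log2 fold change of 0.28 (SE 0.177, 95% interval -0.084 to 0.65, adjusted p = 0.781, edgeR). The interval includes 0 and is the widest of the 10 members. Without the 5 libraries rich in choroid plexus RNA the log2 fold change of Dbp was 0.115 (unadjusted p = 0.564). Ciart had means of 7.26 ± 2.27 CPM in WT and 7.87 ± 1.84 CPM in KO (log2 fold change 0.12, SE 0.156; 0.0395 without KO 2 and 0.215 without WT 5), and Nr1d1 of 56.9 ± 9.47 and 58.7 ± 9.24 CPM (0.04, SE 0.0924). With Dbp as a covariate the log2 fold changes of Ciart and Nr1d1 were -0.115 and -0.101. Clock had means of 107 ± 10.7 CPM in WT and 101 ± 8.56 CPM in KO (-0.08, SE 0.0562; -0.0349 without the 5 libraries). Bhlhe41 had means of 43.7 ± 4.07 and 45.4 ± 5.78 CPM (0.06, SE 0.0648), and its log2 fold change was 0.0184 without KO 8, where it was highest.

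The Period genes showed no genotype difference that these libraries could resolve. Per1 had means of 92.9 ± 8.03 CPM in WT and 91.4 ± 8.68 CPM in KO, with a log2 fold change of -0.02 (95% interval -0.14 to 0.09), which was -0.0679 without the 5 libraries rich in choroid plexus RNA and -0.0523 to -0.00534 with single libraries left out. Per2 had means of 52.8 ± 8.69 and 48.4 ± 11.5 CPM, with a log2 fold change of -0.13 (-0.38 to 0.12), which was -0.066 without KO 8 and -0.244 without those 5 libraries. Per3 had means of 59.0 ± 8.36 and 60.1 ± 9.06 CPM, with a log2 fold change of 0.03 (-0.15 to 0.21). Its sign turned with limma voom (-0.0734), with Dbp as covariate (-0.028), without those 5 libraries (-0.0761) and when KO 2, KO 6, WT 15 or KO 22 was left out alone (-0.00469 at the lowest). The interval is narrowest for Per1, the least variable member. Of the 23 other clock genes none passed (edgeR), and 3 had an unadjusted p below 0.05, a share of 13% against 5.74% of all genes: Rora with a log2 fold change of 0.30 (SE 0.0865, adjusted p = 0.781), Rorb with 0.28 (SE 0.106, adjusted p = 0.781), both encoding activators of Arntl, and Fbxw11 with -0.13 (SE 0.0434, adjusted p = 0.781). Without KO 8 these were 0.23, 0.21 and -0.11 (edgeR, adjusted p = 0.967 for each). No dentate gyrus, CA1, CA3, choroid plexus, hypothalamus or suprachiasmatic marker passed the test in this comparison (edgeR). All 6 dentate gyrus and all 4 CA3 markers had log2 fold changes below 0, with medians of -0.35 and -0.34, and of -0.22 for both lists without KO 8. An unadjusted p below 0.05 was reached by 1 gene of each list, and without KO 8 by 3 dentate gyrus and 1 CA3 markers. Of 4 CA1 markers 1 had a log2 fold change above 0 (median -0.07), and without KO 8 it was 3 of 4 (0.05). All 6 tested choroid plexus markers were above 0, with medians of 0.29 and, without KO 8, 0.42. Of 12 immediate early genes 10 were below 0, and without KO 8 all 12 were. No gene of these last lists had an unadjusted p below 0.05. The 2 tested hypothalamus and the 2 tested suprachiasmatic markers had log2 fold changes above 0, each with an unadjusted p below 0.05, with medians of 2.38 and 0.58. Without KO 8 the hypothalamus markers had opposite signs (Pomc 0.56, Baiap3 -0.35) and neither had an unadjusted p below 0.05, while both suprachiasmatic markers stayed above 0 and 1, Vip at 0.43, had one. Vip ranged from 6.88 CPM in KO 6 to 22.9 CPM in KO 16 and was 17.5 CPM in KO 8. Six6, a suprachiasmatic marker with too few counts to be tested, had 10.9 CPM in KO 8 and at most 0.0898 CPM elsewhere. The part of the dissected regions in the genotype values of the clock genes was not tested.

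**Figure D5:**
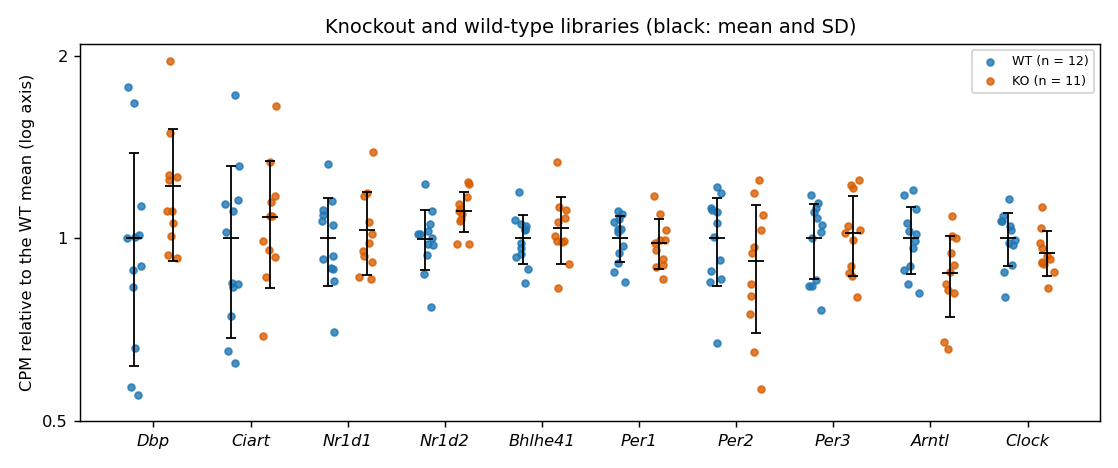
CPM of each of the 10 genes relative to its WT mean, on a log axis, one point per library (WT blue, n = 12; KO orange, n = 11), with black bars for the mean and SD. The genotypes overlap for every gene, and the points spread most for Dbp, from 21.3 to 75.7 CPM.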

How the data were processed

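RNA from dissected hippocampus was extracted in Trizol and over columns and made into stranded mRNA libraries, per the labels' protocols. The authors deposited a table of estimated counts (expected counts) per Ensembl gene, made with tools that the submitters' processing notes list as bcl2fastq and STAR, in which 24.6% to 27.2% of a library's non-zero values were fractional. The same notes name the build mm10. The counting program and its use of strand are not given in the sources used here. Every column matched a library by its name. Between libraries of the same genotype the chi-square per degree of freedom was 6.9 or more, so none looked like a library deposited again.

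Counts were rounded and tested with edgeR 4.0.16 (R 4.3.3): filterByExpr by genotype, TMM scaling and the robust quasi-likelihood F test, with p-values adjusted by Benjamini-Hochberg over all tested genes (15828, holding 99.84% of counts) at a threshold of 0.05. The tests were of genotype, of library number and of Dbp log2 CPM, the last 2 with genotype as a term. The prior count of log2 CPM was 2. A gene with 0 counts could have had up to 3, or 0.131 to 0.218 CPM, a limit that covers counting error only. Correlations were tested by permutation (100000 resamples, scipy 1.17.1, numpy 2.4.6). Alternatives were DESeq2 1.42.0, limma 3.58.1 voom with quality weights, RLE scaling, other filters and covariates, and leaving libraries out. Positions and exon lengths are from GENCODE on GRCm38. The edgeR tests of genotype, library number and Dbp and the permutation test were tried on simulated data. The other steps were not.

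Members and lists were chosen with earlier results of these data known. Genes named are the members, 23 other clock genes, the 5 genes most and the 5 least like Dbp at a mean of at least 1 CPM, and examples from the marker lists. Far1 was named after its value was seen, and Sphk2 and Thra because they overlap members.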

Additional observations from a re-analysis of the deposited data

How the results depend on the processing

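Depth limits Ciart most among the members, with 78 to 236 counts per library. No paired analysis was possible because no library number occurs in both genotypes. What the library number counts, a dissection time and a batch are not given, so their part in the pattern was not tested. Changing 1 choice at a time, no member was called in KO against WT in any alternative. For the changes below, the cause was not tested.

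The number of genes called in KO against WT, 2, was 4 with DESeq2, 5 with limma voom, 1 when genes averaging under 50 counts were dropped and 1 without the 5 libraries rich in choroid plexus RNA, and 2 to 3 when single libraries were left out, with 0 members each time. The count of members at an unadjusted p below 0.05, 2, was 1 to 3 with single libraries left out, 3 with voom, 1 without the 5 libraries and 0 with Dbp as covariate. Log2 fold changes turned sign for Per3 (-0.0734 with voom, -0.028 with Dbp as covariate, -0.0761 without the 5 libraries), Nr1d1 (-0.101 with Dbp as covariate, -0.0435 without the 5), Ciart (-0.115 and -0.0646 likewise) and Bhlhe41 (-0.000851 with Dbp as covariate). Leaving out single libraries moved Per3 from -0.00469 to 0.0585, Nr1d1 from -0.00658 to 0.0884, Ciart from 0.0395 to 0.215 and Bhlhe41 from 0.0184 to 0.0836.

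For library number, 1 gene and 0 members were called. DESeq2 called 127 genes and 3 members. The count of genes was 4 with no filter, 0 with the choroid plexus and hypothalamus lists as covariates, 0 without the 5 libraries, and 0 to 2 (members 0) with single libraries left out. Between numbers above 12 and the rest the log2 difference of Per2 was -0.0734. Its slope per number was -0.00114 with the lists as covariates, -0.00163 without KO 8 and -0.00382 to 0.00413 with single libraries left out. That of Per1 was 0.000571 without the 5 libraries. The count of members with an unadjusted p below 0.05 in the correlation with number, 6, was 3 within WT, 1 within KO and 4 to 7 with single libraries left out, Per3 being added without KO 22. The r of Per2 was -0.06 within WT, -0.04 without KO 8 and -0.04 to 0.13 with single libraries left out, and that of Per1 was 0.08 without WT 1 and KO 2.

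For Dbp, 12 genes and 2 members were called. The count of genes was 81 with no genotype term, 382 with the lists as covariates, 20 with genes under 50 counts dropped, 109 without KO 8, 3 with Nr1d1 as yardstick, 2 without the 5 libraries and 1 with library number as covariate. Members called were 1 with each of the last 3. Leaving out single libraries gave 1 gene (without WT 1) to 109 (without KO 8) and 1 to 2 members, and 6 to 7 members with an unadjusted p below 0.05 in the correlation, Per3 being added without WT 11. Per2 had a slope of 0.236 on Nr1d1, -0.107 to 0.0252 on Dbp with single libraries left out, and r = 0.19 within KO.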
